A study of Mus musculus with 25 samples.

Results

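The Nkx homeobox family was represented by 10 genes, which were followed through 12 lists of H3K27me3 peaks from regenerating mouse muscle. The genes were taken by symbol (Nkx1-1, Nkx1-2, Nkx2-1, Nkx2-2, Nkx2-3, Nkx2-4, Nkx2-5, Nkx2-6, Nkx6-1 and Nkx6-2), and every peak that the authors had assigned to one of them was kept. All 10 had a peak in at least 1 list, out of 6091 genes that did, and 330 of the 34244 peaks were theirs. Chromatin immunoprecipitation sequencing (ChIP-seq) had been carried out on Dendra2+ myofibers of the tibialis anterior at 14 days post injury (dpi), with 3 libraries for each of 4 genotypes. Every group, wild-type included, carried the Pax7-Cre(ERT2) driver, which recombines alleles in muscle stem cells, and the mito-Dendra2 reporter, and received tamoxifen at 75 mg/kg on 5 days and then 50 µL of 1.2% BaCl2 into the muscle. The mfn2-/- fibers lacked mitofusin 2, a GTPase of the outer mitochondrial membrane. The vhl-/- fibers lacked the subunit of the ubiquitin ligase that recognizes HIF1α, and HIF1dPA fibers expressed a HIF1α mutant that escapes that recognition. Recombination was limited to the stem cell lineage, and the label Dendra2+ marks fibers to which those cells contributed. The study calls the libraries of a genotype biological replicates, and the labels do not tie them to single animals. A lower signal in bulk chromatin does not tell fewer marked nuclei from less mark per nucleus.

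Nkx genes encode homeodomain transcription factors that set regional identity in the embryo, in the ventral neural tube, forebrain, thyroid, lung, heart, pancreas, spleen and gut. H3K27me3 is laid down by Polycomb repressive complex 2 and typically covers CpG-rich developmental genes in broad domains in cells that do not use them. These genes are best known from tissues other than skeletal muscle fibers, and the comparisons ask whether loss of Mfn2 or excess HIF1α went with another extent of the mark over them. None of 9 myofiber genes (Acta1, Ckm, Mylpf, Tnnt3, Tnni2, Ttn, Myh4, Myh1 and Pvalb) had an H3K27me3 peak in any list. Of 7 genes of other cells found in muscle, Pdgfra, a marker of mesenchymal cells, was listed in 9 of 12 lists, Pax7 in 5 and Ptprc in 1, and the other 4 were not listed. A repressive mark cannot show which cells were present.

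The 3 HIF1dPA lists stood apart before any gene was considered, with 482 to 501 peaks against 3358 to 4035 in the other 9 lists. Read totals are not part of these files and sequencing depth is unknown, and the part of depth or enrichment in this gap was not tested. The files give each peak a score, 10 times the negative log10 of its p-value, and each list stops near a score of 50. Values below are the base pairs (bp) covered by a gene's peaks in a list, called the covered length, and the rank of a gene's strongest peak by score within its own list.

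Promoter sequence was available for 9 of the 10 genes in RefSeq (GRCm38.p6, the mm10 assembly), all but Nkx2-6. These windows of 300 bases, from 250 before to 50 after the start site, held 9 to 40 CG dinucleotides, with a median of 21, against a median of 7 over 32851 mouse promoters and of 15 over the promoters of genes tested here. The 250 bases before the start are shown for 4 genes, with CG dinucleotides in capitals. Nkx2-4 (chr2:147085346-147085595, minus strand) and Nkx2-5 (chr17:26841566-26841815, minus strand) were the pair with a peak in all 12 lists, and they differ widely in CG content. Nkx1-1 (chr5:33434091-33434340, minus strand) and Nkx2-3 (chr19:43612075-43612324, plus strand) were the pair whose covered length passed the test across genotypes.
Nkx2-4: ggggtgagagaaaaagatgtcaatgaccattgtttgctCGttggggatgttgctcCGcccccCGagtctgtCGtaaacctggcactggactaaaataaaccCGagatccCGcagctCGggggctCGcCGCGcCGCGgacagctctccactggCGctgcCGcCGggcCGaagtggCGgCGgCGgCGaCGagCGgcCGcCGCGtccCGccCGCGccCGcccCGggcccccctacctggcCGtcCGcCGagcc
Nkx2-5: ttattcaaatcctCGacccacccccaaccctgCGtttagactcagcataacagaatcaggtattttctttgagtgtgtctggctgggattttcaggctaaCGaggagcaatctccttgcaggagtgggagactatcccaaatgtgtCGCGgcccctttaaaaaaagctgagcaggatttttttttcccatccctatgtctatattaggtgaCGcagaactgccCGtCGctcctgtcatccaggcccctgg
Nkx1-1: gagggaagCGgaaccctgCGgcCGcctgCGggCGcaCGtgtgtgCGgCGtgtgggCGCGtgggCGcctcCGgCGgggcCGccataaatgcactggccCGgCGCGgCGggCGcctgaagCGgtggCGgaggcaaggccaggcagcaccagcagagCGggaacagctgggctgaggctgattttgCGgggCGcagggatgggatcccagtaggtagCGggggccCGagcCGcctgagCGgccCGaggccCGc
Nkx2-3: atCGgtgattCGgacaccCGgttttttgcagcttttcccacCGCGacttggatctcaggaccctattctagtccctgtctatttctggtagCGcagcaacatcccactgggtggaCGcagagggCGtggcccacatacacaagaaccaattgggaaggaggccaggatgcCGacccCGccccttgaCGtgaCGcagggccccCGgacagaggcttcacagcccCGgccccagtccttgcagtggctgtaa

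The Nkx2-4 window of 300 bases held 38 CG and that of Nkx2-5 held 9, and 95.6% and 56.5% of all promoters held no more than that. Nkx1-1 held 37 and Nkx2-3 held 15. The core letters of hypoxia response elements, ACGTG and GCGTG, were searched on both strands in the same windows. ACGTG was present in 4 of the 9 (Nkx1-1, Nkx1-2, Nkx2-2 and Nkx2-3) and in 19.6% of all promoters. GCGTG was present in 3 (Nkx1-1, Nkx2-3 and Nkx6-1) and in 32.4%. CAAGTG, a core recognized by Nkx2 homeodomains, was present in 2 (Nkx1-2 and Nkx2-2) and in 13.6%. A match of letters is not a bound site.

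The mark recurred over these genes. Nkx2-4 and Nkx2-5 were listed in all 12 lists, Nkx2-1 and Nkx6-1 in 11, Nkx1-1, Nkx2-3 and Nkx6-2 in 9, Nkx2-6 in 8 and Nkx2-2 in 6, while Nkx1-2 was listed in 1. A gene entered the tests with a peak in at least 3 lists, which 9 of the 10 genes and 2393 genes in all had. The median of the 9 was 9 lists, against 5 over all genes tested, and 7 of the 9 were listed in all 9 wild-type, mfn2-/- and vhl-/- lists, as were 15.3% of genes tested. Their mean covered length over the 12 lists had a median of 2607 bp against 431 bp over all genes tested. Peaks of 3000 bp or more made up 15 of the 330 Nkx peaks and 0.765% of all peaks. Positions within these domains were less constant than presence: replicates of a genotype shared on average 0.257 (wild-type), 0.318 (mfn2-/-), 0.321 (vhl-/-) and 0.101 (HIF1dPA) of the base pairs covered in either list at the Nkx genes, against 0.152, 0.133, 0.19 and 0.0438 over all peaks.

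**Figure D1:**
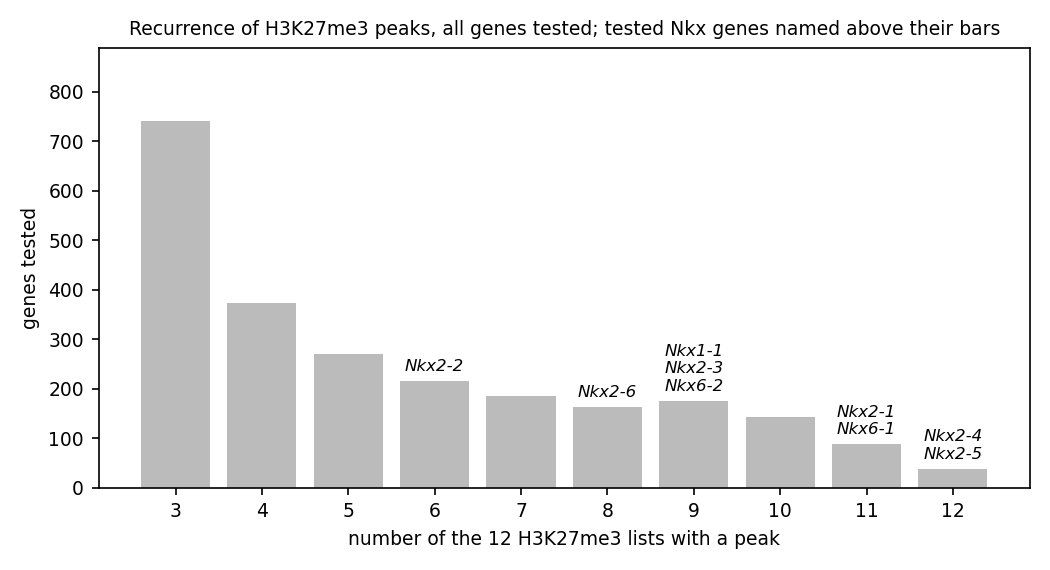
Number of genes tested (vertical axis) by the number of the 12 H3K27me3 lists in which they had a peak (horizontal axis), with the 9 tested Nkx genes named above the bar they belong to. Most genes lie at 3 to 5 lists, and 7 of the 9 Nkx genes lie at 9 or more.

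The number of Nkx genes listed was the same in wild-type, mfn2-/- and vhl-/- libraries within their spread. It was 8, 9 and 9 in wild-type, 8, 8 and 9 in mfn2-/-, 9, 9 and 8 in vhl-/- and 3, 5 and 3 in HIF1dPA lists, or 8.67 ± 0.577, 8.33 ± 0.577, 8.67 ± 0.577 and 3.67 ± 1.15 (SD, n = 3 each). The HIF1dPA values lay below all others, as did the lengths of those lists. When only the 482 strongest peaks of each list were kept, the HIF1dPA lists held as many of these genes as the wild-type lists did, 3.67 ± 1.15 against 3.67 ± 0.577. At that length the mfn2-/- lists held 5.33 ± 1.15, and the vhl-/- lists held 6.67 ± 0.577, with 7, 6 and 7 genes against 4, 4 and 3 in wild-type. Nkx peaks numbered 10, 12 and 11 among those of vhl-/- and 10, 8 and 6 among those of wild-type. The Nkx genes listed thus did not overlap between vhl-/- and wild-type, while the Nkx peak numbers met at 10. Over all genes, the 482 peaks fell on 347, 329 and 331 genes in wild-type and 326, 326 and 336 in vhl-/-. In mfn2-/- they fell on 317, 316 and 318 genes, and in HIF1dPA they were spread over more, 430, 415 and 419. Nkx2-4 was among the 482 strongest peaks in all 12 libraries. No test was made of these counts, since the genes were chosen as a set.

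**Figure D2:**
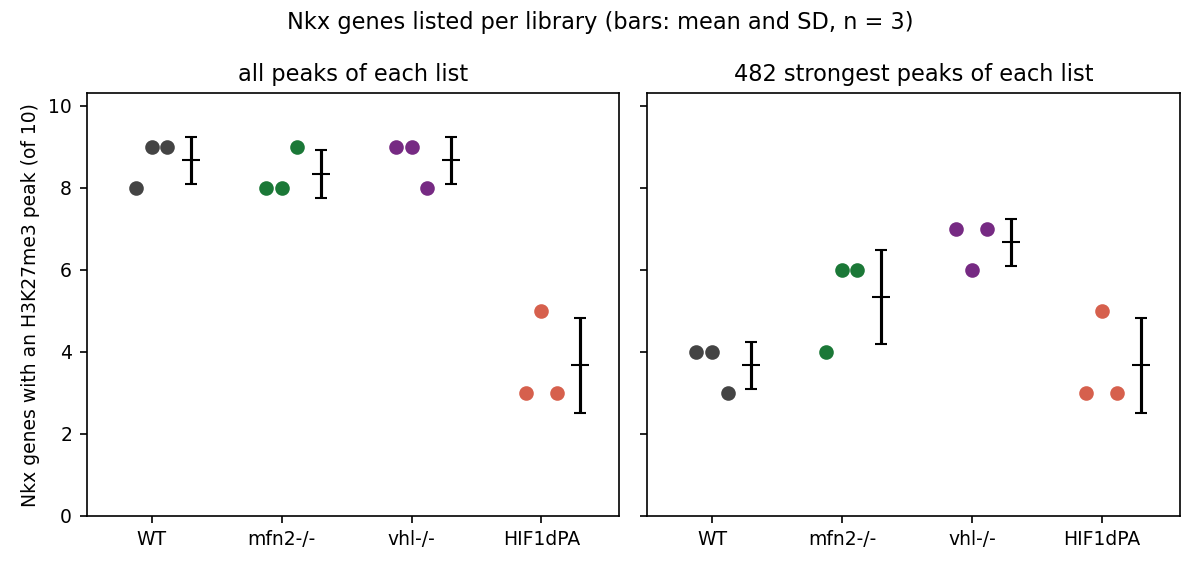
Number of the 10 Nkx genes with an H3K27me3 peak in each library (points), with the mean and SD of 3 libraries (bars), by genotype. With all peaks the HIF1dPA lists lie at 3 to 5 and the others at 8 or 9, and with the 482 strongest peaks of each list the wild-type lists lie at 3 or 4, within the HIF1dPA range, and the vhl-/- lists at 6 or 7.

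Across the 4 genotypes the covered length of 2 of the 9 tested genes, Nkx1-1 and Nkx2-3, passed the test (exact permutation test of the sum of squares between genotypes, Benjamini-Hochberg adjusted p under 0.05 over 2393 genes), where 1.84% of all genes passed. Nkx1-1 had an adjusted p of 0.0444 and Nkx2-3 of 0.0414 in that exact test. Both were longest in vhl-/- and not listed in HIF1dPA libraries. With the HIF1dPA lists left out, none of the 9 genes and 0% of all genes passed the exact permutation test. Unadjusted p-values under 0.05 were then held by 2 of the 9, Nkx1-1 and Nkx2-3, and by 16.8% of all genes. Both calls were also lost when any of the 3 HIF1dPA lists, mfn2-/- replicate 1 or vhl-/- replicate 2 was left out, with 0 Nkx genes called in each case. The within-list percentile of the strongest peak, with 0 for a gene not listed, passed for none of the 9 genes and 0% of all genes in the same exact test, where 8 of the 9 and 29.1% of all genes had an unadjusted p under 0.05.

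Set against wild-type one genotype at a time, with the same 3 wild-type lists in each comparison, the covered length of vhl-/- was higher in all 3 lists than in any wild-type list for 3 of the 9 genes (Nkx1-1, Nkx2-1 and Nkx2-3) and for 6.23% of all genes. It was lower for none of the 9 and for 2.42% of all. Of mfn2-/- the lists overlapped wild-type for every one of the 9, where 10.1% of all genes lay wholly lower and 9.61% wholly higher. On the autosomes, where all 10 Nkx genes lie, those shares were 11.1% and 1.42%. The HIF1dPA lists lay wholly lower for 8 of the 9, all but Nkx2-2, and for 29% of all genes, and wholly higher for none of the 9 and 0.125% of all. A gene could lie wholly lower only if all 3 wild-type lists held it, as they held those 8 and not Nkx2-2. The share of all genes held in this way was not counted, so the 29% is not a like comparison. With the 482 strongest peaks of each list, 6 of the Nkx genes could still be tested, and 1 of them (Nkx2-4) lay wholly lower in HIF1dPA, against 23.6% of all genes, and none wholly higher in vhl-/-, against 4.98%. Between the mutants, a comparison added after the values were seen, all 3 vhl-/- lists lay above all 3 mfn2-/- lists for 5 of the 9 (Nkx1-1, Nkx2-1, Nkx2-3, Nkx2-4 and Nkx6-1) and for 14.4% of all genes. An exact permutation test of 3 against 3 libraries cannot go below p = 0.1, so none was made. The median difference of means over the 9 genes was 1981 bp for vhl-/- and -373 bp for mfn2-/-, against 63 bp and -238 bp over all genes tested. These differences are not scaled to coverage, which had a median of 2607 bp at the 9 genes and 431 bp over genes tested. The vhl-/- lists were also longer, at 3852 ± 201 peaks against 3551 ± 195 in wild-type. Of all base pairs under peaks, Nkx genes held 1.17 ± 0.206% in wild-type, 1.43 ± 0.14% in vhl-/- and 1.21 ± 0.165% in mfn2-/- lists (SD, n = 3). Over the 3 wild-type and 9 mutant libraries, none of the 9 genes and 0% of all genes passed the exact permutation test, in which 0 of the 9 and 218 of all genes had an unadjusted p under 0.05.

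**Figure D3:**
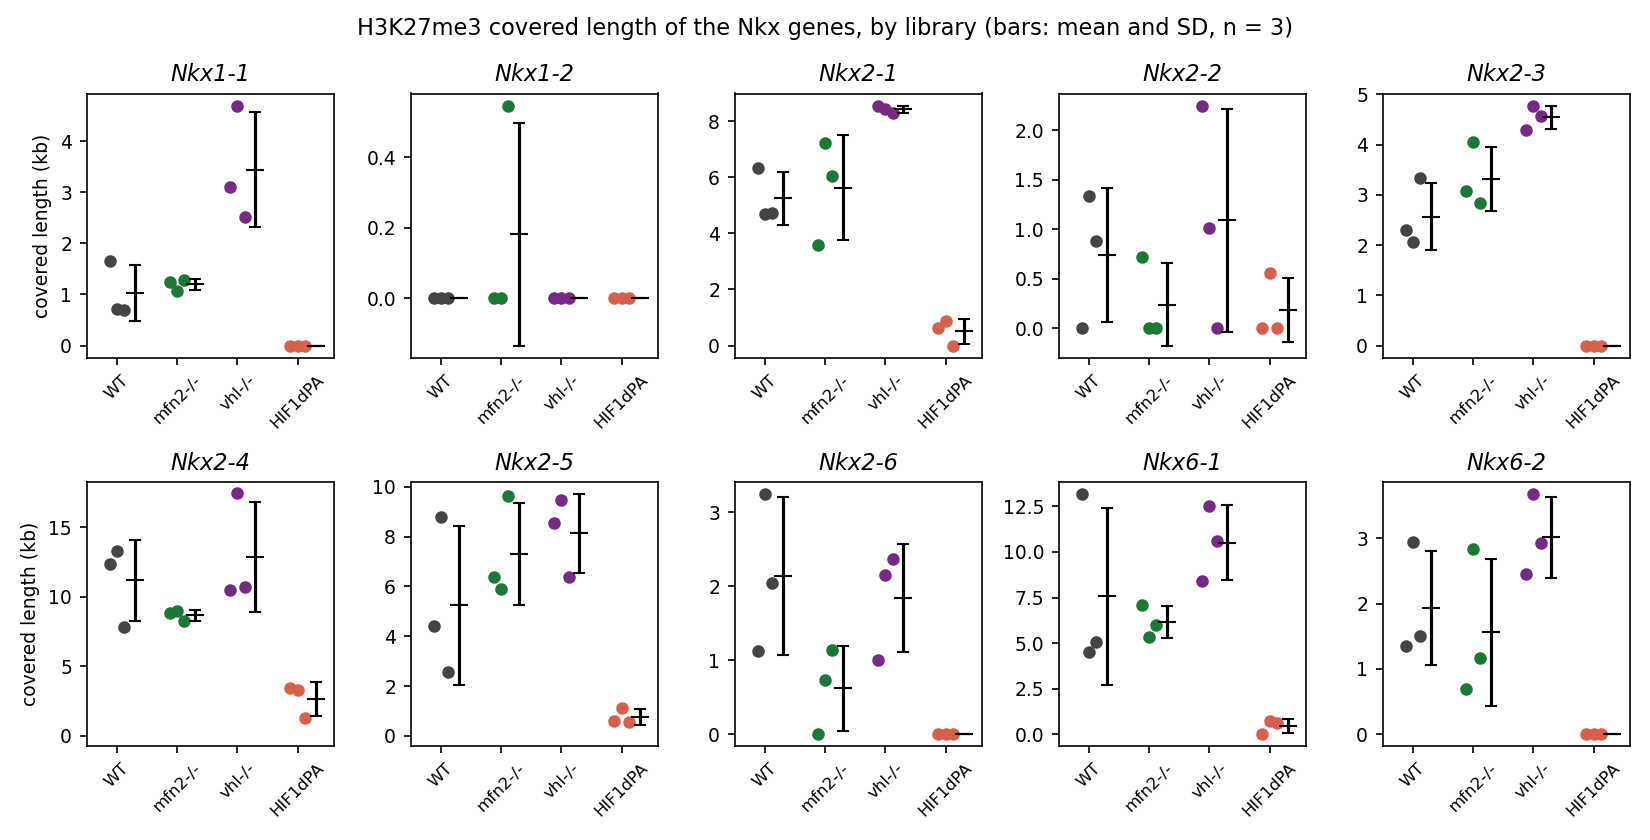
Covered length of H3K27me3 peaks (kb, vertical axis, a scale of its own for each gene) for the 10 Nkx genes in each of the 12 libraries (points, 3 per genotype), with the mean and SD of 3 libraries (bars). The vhl-/- points of Nkx1-1, Nkx2-1 and Nkx2-3 lie above all wild-type points, and the HIF1dPA points lie below all wild-type points for 8 genes, all but Nkx1-2 and Nkx2-2.

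Nkx2-4 (gene at mm10 chr2:147083337-147085439), a close paralog of Nkx2-1 that is known from the developing hypothalamus, had the largest mean covered length of the set. Its peaks ran beyond the gene on both sides, from chr2:147079830 to chr2:147112642. It covered 12392, 13303 and 7836 bp in wild-type, 8822, 8996 and 8230 bp in mfn2-/-, 10473, 17452 and 10678 bp in vhl-/- and 3462, 3291 and 1276 bp in HIF1dPA lists. Its strongest peak ranked 3, 6 and 21 in the wild-type lists, 13, 11 and 1 in mfn2-/-, 2, 1 and 19 in vhl-/- and 7, 25 and 17 in the much shorter HIF1dPA lists. As a percentile within its list that peak stood at 95.2 to 98.8 in HIF1dPA, below the 99.4 to 100 of the other 9 lists. A given rank makes a lower percentile in a shorter list. Of the HIF1dPA ranks, 7 and 17 lay within the 1 to 21 of the other lists and 25 lay beyond. The HIF1dPA covered lengths of Nkx2-4 also lay below those of every other library. Its adjusted p across genotypes was 0.068 (exact permutation test), past the threshold in none of the alternatives run. Its widest peak, of 7701 bp, was in vhl-/- replicate 2.

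The Nkx2-4 peaks flanked the start site. Of 62 peaks 38 lay wholly upstream, 22 wholly downstream and 2 over the start, and 11 of the 12 lists had peaks on both sides. The window of 300 bases around the start, whose CG-rich upstream part is printed above, met a peak in 2 lists. The stretch listed most often (chr2:147088455-147088886, 432 bp, from -3.54 to -3.11 kb relative to the start) was under a peak in 11 lists. Over the 8 tested genes with a start site in the tables, a peak met the window in 26 of 79 cases where a list held the gene (32.9%), against 17.4% over genes tested.

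**Figure D4:**
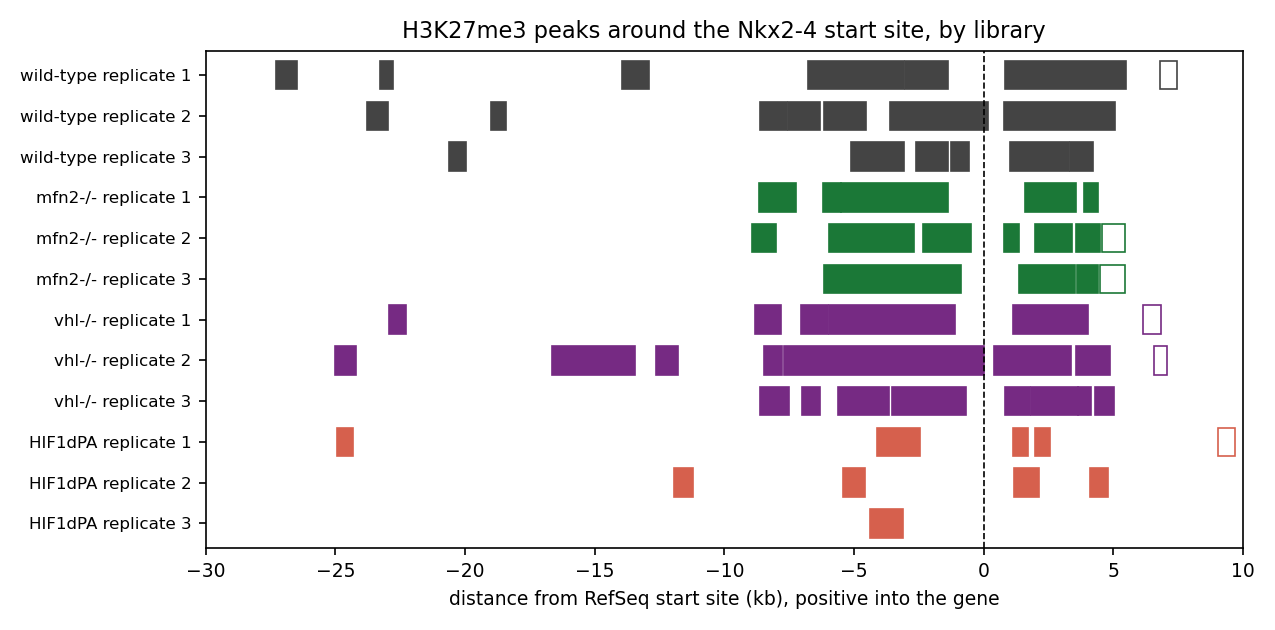
H3K27me3 peaks (bars, to scale) in each of the 12 libraries by distance from the Nkx2-4 start site (kb, positive into the gene, dashed line at the start), filled where assigned to Nkx2-4 and open where assigned to another gene. Blocks lie on both sides of the start in 11 libraries, and 2 libraries have a peak that reaches it.

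Nkx2-1, which specifies thyroid, lung and ventral forebrain (chr12:56531935-56536908), covered 6325, 4692 and 4724 bp in wild-type, 3586, 7238 and 6062 bp in mfn2-/-, 8548, 8451 and 8289 bp in vhl-/- and 631, 889 and 0 bp in HIF1dPA lists. The vhl-/- libraries, at 8429 ± 131 bp (SD, n = 3), were the closest to each other and lay above all others, 1.61 times the wild-type mean of 5247 ± 934 bp. The adjusted p across genotypes was 0.0535 (exact permutation test), which missed the threshold, and it ranged from 0.0424 to 0.533 over 21 alternatives, under 0.05 in 4 of them. The 66 peaks under its own symbol all lay downstream of the RefSeq start, from 1.57 to 78.7 kb, and 12 of them were in the promoter classes of the authors, which reach 3 kb. The authors' classes were not counted from that start. In wild-type replicate 3, a peak from 1.57 to 2.25 kb was classed as within 1 kb. The peaks outside the promoter classes were classed as distal intergenic. Within 30 kb of the start, 12 more peaks in 9 lists were assigned to the gene model Gm26973, some of them over the start itself, as in wild-type replicate 1 (from -0.394 to 0.308 kb) and vhl-/- replicate 1 (from -0.506 to 0.127 kb). Within 5 kb of the start site the vhl-/- mean exceeded that of wild-type by 264 bp, and the lists then overlapped. In the 482 strongest peaks its HIF1dPA mean exceeded that of wild-type, by 507 bp, since no wild-type list held it there.

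Nkx2-2, Nkx6-1 and Nkx6-2 are repressors that pattern the ventral neural tube, and the first and second also serve the endocrine pancreas. Nkx6-1 (chr5:101659184-101664711) covered 13186, 4496 and 5062 bp in wild-type, 7062, 5329 and 6007 bp in mfn2-/-, 8397, 12527 and 10585 bp in vhl-/- and 0, 698 and 623 bp in HIF1dPA lists. Wild-type replicate 1 lay above every other library, so the wild-type and vhl-/- lists overlapped. The adjusted p across genotypes was 0.0734 with all libraries and 0.0372 without that replicate, within a range of 0.0372 to 0.578 over 21 alternatives (exact permutation test). Its strongest peak ranked between 44 and 199 in the mfn2-/- and vhl-/- lists. The 68 peaks were spread from 10.5 kb upstream to 23.3 kb downstream of the start.

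Nkx6-2, which also acts in oligodendrocytes (chr7:139579376-139582797), covered 1357, 2937 and 1507 bp in wild-type, 684, 2835 and 1162 bp in mfn2-/- and 2449, 3680 and 2931 bp in vhl-/- lists and was not listed in HIF1dPA. The mean of vhl-/-, 3020 ± 620 bp, was 1.56 times that of wild-type, 1934 ± 872 bp, with overlap through wild-type replicate 2. Of its 18 peaks 17 were in promoter classes, the highest share of any of the 9 tested genes. The adjusted p across genotypes was 0.0734 (exact permutation test).

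Nkx2-2 (chr2:147176485-147195434) could not be read by its own symbol alone. It covered 0, 1336 and 886 bp in wild-type, 718, 0 and 0 bp in mfn2-/-, 2250, 1015 and 0 bp in vhl-/- and 0, 561 and 0 bp in HIF1dPA lists, and each genotype overlapped the others (adjusted p 0.536, exact permutation test). The antisense gene Nkx2-2os overlaps it, and within 30 kb of the Nkx2-2 start 46 peaks in 11 lists were assigned to Nkx2-2os against 7 in 6 lists to Nkx2-2. Under both symbols together the locus covered 5897, 5609 and 5999 bp in wild-type, 6000.0, 3688 and 1667 bp in mfn2-/-, 7502, 7669 and 3418 bp in vhl-/- and 0, 1332 and 1265 bp in HIF1dPA lists. Counted that way it was marked in 11 of 12 lists, and wild-type lay above HIF1dPA without overlap.

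Nkx2-5 and Nkx2-6 act in the embryonic heart and pharynx. Nkx2-5 (chr17:26838664-26844988) covered 4392, 8779 and 2570 bp in wild-type, 6365, 5911 and 9643 bp in mfn2-/-, 8551, 9474 and 6360 bp in vhl-/- and 598, 1114 and 560 bp in HIF1dPA lists. Only the HIF1dPA lists stood clear of the rest, and the adjusted p was 0.0734 (exact permutation test). Its strongest peak ranked 127, 168 and 1113 in wild-type, between 48 and 134 in mfn2-/-, between 30 and 148 in vhl-/- and between 338 and 412 in HIF1dPA. The stretch listed most often lay from -7.29 to -6.79 kb relative to the start and was under a peak in 8 lists, while the window at the start, with its 9 CG, met a peak in 3.

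Nkx2-6 (chr14:69171802-69175540) covered 1117, 3244 and 2043 bp in wild-type, 0, 730 and 1131 bp in mfn2-/- and 1003, 2146 and 2371 bp in vhl-/- lists and was not listed in HIF1dPA. It was the member with the lowest mfn2-/- level relative to wild-type, 620 ± 573 bp against 2135 ± 1066 bp, and the highest mfn2-/- value lay just above the lowest of wild-type. Its p across wild-type and the 9 mutant libraries was the smallest of the 9, at 0.0682 (exact permutation test), with an adjusted p of 0.568.

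Nkx2-3, needed for spleen and gut development (chr19:43612325-43615892), covered 2293, 2069 and 3327 bp in wild-type, 3084, 4046 and 2833 bp in mfn2-/- and 4298, 4763 and 4570 bp in vhl-/- lists and was not listed in HIF1dPA. The vhl-/- lists, at 4544 ± 234 bp, were 1.77 times wild-type, at 2563 ± 671 bp, with no overlap. This gap depended on which gene the peaks were credited to. Within 30 kb of the start 69 peaks were assigned to the neighbouring gene model Gm20467, which lies upstream in the maps, against 24 to Nkx2-3. Counting any peak within 5 kb of the start gave 5358, 3953 and 5730 bp in wild-type and 5368, 5570 and 6712 bp in vhl-/- lists, which overlapped, and an adjusted p across genotypes of 0.0641 (exact permutation test). Over 21 alternatives that value ranged from 0.0378 to 0.246.

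**Figure D5:**
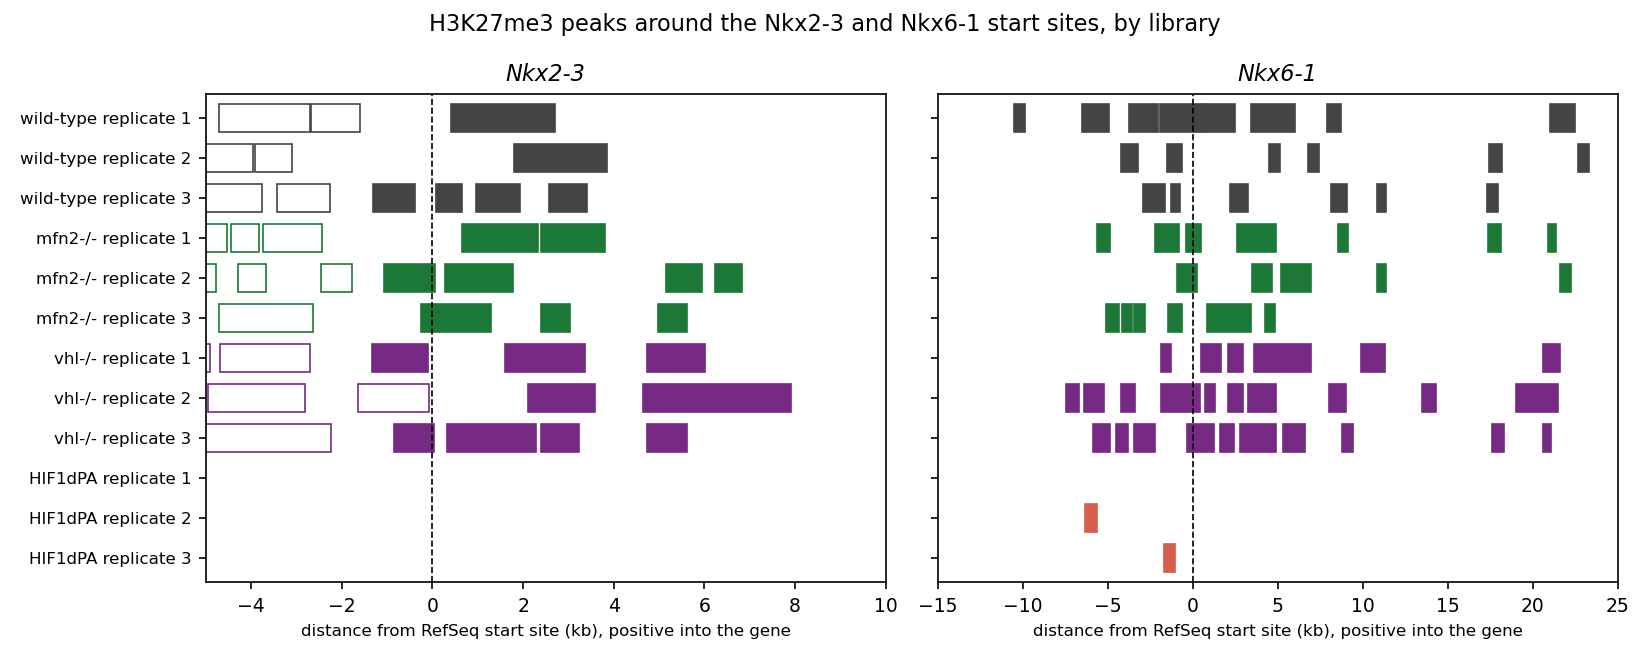
H3K27me3 peaks (bars, to scale) in each of the 12 libraries by distance from the start sites of Nkx2-3 (left) and Nkx6-1 (right), in kb and positive into the gene, filled where assigned to the named gene and open where assigned to another. At Nkx2-3 the filled peaks lie mostly in and beyond the gene and the open ones upstream, and at Nkx6-1 peaks of varied width are scattered on both sides of the start.

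Nkx1-1 and Nkx1-2 are the mouse homologs of the Drosophila NK1 gene slouch and are expressed in the embryonic nervous system. Nkx1-1 (chr5:33430734-33434090) covered 1663, 713 and 704 bp in wild-type, 1245, 1064 and 1278 bp in mfn2-/- and 3108, 4695 and 2516 bp in vhl-/- lists and was not listed in HIF1dPA. The vhl-/- mean of 3439.7 ± 1127 bp was 3.35 times that of wild-type, 1026.7 ± 551 bp, the largest ratio of the 9 genes, and came with 12 peaks in 3 lists against 4. When any peak within 5 kb of the start site was counted, all vhl-/- lists (1425, 2794 and 1701 bp) again lay above wild-type (728, 713 and 704 bp), and so did all mfn2-/- lists (1245, 1064 and 808 bp). The adjusted p across genotypes of 0.0444 ranged from 0.0314 to 0.179 over 19 alternatives (exact permutation test). The window at the start itself, with its 37 CG, met no peak in any list. Nkx1-2 (chr7:132596239-132599637) had 1 peak, in mfn2-/- replicate 3 (chr7:132596566-132597112, 547 bp, rank 1424), and 11 lists without any under its symbol. Within 30 kb of its start 6 peaks in 6 lists were assigned to the gene model Gm16764. Counting any peak within 5 kb of the start gave 658, 0 and 594 bp in wild-type, 0, 943 and 547 bp in mfn2-/-, 1059, 908 and 1159 bp in vhl-/- and 0 bp in each HIF1dPA list, so that vhl-/- lay wholly above wild-type, as it did for 7.9% of genes counted that way.

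Nkx genes outside the set were listed too, Nkx2-9 in 8 lists, Nkx3-2 in 12 and Nkx6-3 in 3. Nkx3-2, which acts in the axial skeleton, passed across genotypes (adjusted p 0.0414, exact permutation test) with a mean covered length of 9191 bp in vhl-/-, 5771 bp in wild-type, 3423 bp in mfn2-/- and 778 bp in HIF1dPA lists. Its vhl-/- lists lay wholly above wild-type and its HIF1dPA lists wholly below. Among 35 genes known to act with the members in the same organs, 31 were listed, 27 could be tested and none passed across genotypes (exact permutation test). All 3 vhl-/- lists lay above wild-type for 2 of the 27 (Pdx1 and Pax4), where 6.23% of all genes did, and all 3 HIF1dPA lists below it for 19, where 29% of all genes did. Lying below it was again open only to genes with a peak in all 3 wild-type lists. Pax4 was listed in the 3 vhl-/- lists alone. It met the filter of 3 lists only through them, so its place above wild-type was fixed in advance. The mfn2-/- lists lay wholly below wild-type for 2 of the 27 and wholly above it for 1, against 10.1% and 9.61% of all genes. For the organ lists a peak in 1 of the 12 lists was enough to count a gene, and the share over all genes was not counted. In the ventral neural tube list 11 of 12 genes had a peak and 8 could be tested. Pax6 was in 12 lists, Dbx1 and Olig2 in 11, Olig1 in 10, Foxa2 in 9 and Dbx2 in 8. Shh was in 5, Ptch1 in 4, Gli2 and Irx3 in 2 and Gli1 in 1, and Gli3 had none. In the heart list 7 of 8 had a peak, with Gata4, a zinc finger partner of Nkx2-5, in 12 lists and Mef2c, which muscle also uses, in none. In the thyroid, lung and forebrain list 4 of 5 had a peak, in the pancreas list 7 of 8, and in the spleen and gut list both Tlx1 and Barx1.

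Nkx2-1 and Nkx6-1 tied at 11 lists, and Nkx6-1 was taken as the third most often listed member for its larger mean covered length. The genes most like these 3 in covered length over the 12 lists were Skap1 and Sim1 for Nkx2-4, at mean absolute differences of 1677 and 1699.6 bp. They were Gm26872 and Gm11535 for Nkx2-5, at 1167 and 1361 bp, and Tcf21 and Gm20646 for Nkx6-1, at 1291 and 1669 bp. These are descriptions over libraries that share their differences in list length.

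H3K9me3, the mark of constitutive heterochromatin, was all but missing from these genes. Of the 12 H3K9me3 lists of the same genotypes, 2 held a peak assigned to a member, 1 at Nkx2-1 and 1 at Nkx2-4, one in vhl-/- replicate 3 and the other in HIF1dPA replicate 2. These lists held 887 to 3176 peaks, and the share over all genes was not counted. Of the myofiber genes and genes of other cells checked above, only Cdh5 was listed, in 1 of these lists. The scarcity was thus not shown to be particular to the Nkx genes.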

How the data were processed

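ChIP-seq peak lists of 12 H3K27me3 and 12 H3K9me3 libraries were used, 3 per genotype, grouped by the labels. Per the labels' processing notes, the authors worked with BWA 0.7.5, MACS, deepTools 3.5.0 and mm10. Settings, duplicate handling and the use of the input are not given in the sources used here. Peaks had been called per library, and the score the authors deposited equals -10 × log10 of each peak's p-value. The other deposited columns used were start and end, the authors' gene symbol and the feature class. The lists hold no counts, and depth is unknown. The wild-type input was not used here.

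Base pairs under a gene's peaks were summed per list, with overlaps merged and 0 where no peak was listed (3 peaks without a symbol were left out). Genes with a peak in at least 3 of 12 lists were tested by exact permutation of libraries: the sum of squares between the 4 genotypes, the same in 3 genotypes without HIF1dPA, and wild-type against 9 mutant libraries (two-sided on the absolute difference, 220 arrangements, smallest p 0.00455). The smallest p across 4 genotypes was 6.49e-05. Benjamini-Hochberg adjustment ran over all 2393 genes, and scripts were tested on simulated data. The members and gene lists were chosen with earlier results of these data known. The text names all 10 members, the fixed lists of other Nkx genes, partner genes and cell markers, and for the 3 members in most lists (a tie at 11 lists was broken by the larger mean covered length) the 2 genes of closest covered length. Among the fixed lists, 2 genes are not reported here. Python 3.11.15, numpy 2.4.6 and pandas 2.3.3 were used. RefSeq tables (GRCm38.p6) gave start sites and promoters.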

Additional observations from a re-analysis of the deposited data

Results flagged for a closer look

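The covered length of 3 genes moved one way in every vhl-/- list and the opposite way in every HIF1dPA list, each set against every wild-type list, although both genotypes carry excess HIF1α. The vhl-/- mean exceeded wild-type by 2413 bp at Nkx1-1, by 3182 bp at Nkx2-1 and by 1981 bp at Nkx2-3, while the HIF1dPA lists lay below all wild-type lists. Over all genes tested, 6.23% lay wholly higher in vhl-/- and 29% wholly lower in HIF1dPA. The latter was possible only for genes that every wild-type list held. The share with both was not counted, and Nkx3-2, outside the set, had both. The difference between the mutants was not tested. The HIF1dPA lists hold 482 to 501 peaks in all. With the 482 strongest peaks of each list, only mfn2-/- replicate 2 and vhl-/- replicate 3 held Nkx1-1, too few to test it. At that length the opposite pattern was not seen at Nkx2-1 or Nkx2-3. Of the 6 Nkx genes tested there, none lay wholly higher in vhl-/- and Nkx2-4 alone lay wholly lower in HIF1dPA. The HIF1dPA mean of Nkx2-1 then exceeded that of wild-type by 507 bp.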

How the results depend on the processing

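With a score of at least 100 the lists held 3.67 (wild-type), 5.33 (mfn2-/-), 7 (vhl-/-) and 1 (HIF1dPA) Nkx genes on average, and 6 Nkx genes were tested. Of these, 0 were called across 4 genotypes, where 43 genes were (8.6%). In that setting 1 lay wholly higher in vhl-/- (10.4% of all genes) and 1 wholly lower in HIF1dPA (31.6%), and the percentile test called 3 genes in all. With the 482 strongest peaks the averages were 3.67, 5.33 and 6.67 for the first 3 genotypes, 0 Nkx genes and 1 gene in all were called, 0 lay wholly higher in vhl-/- (4.98%) and 1 wholly lower in HIF1dPA (23.6%), and the HIF1dPA minus wild-type difference of Nkx2-1 reversed to 507 bp. Promoter peaks alone gave an average of 1.67 in HIF1dPA, 1 Nkx gene (Nkx1-1) and 19 genes called, and 1 Nkx gene wholly higher in mfn2-/- (3.58%) and 1 in vhl-/- (6.61%). Without the filter on lists, 0 Nkx genes and 0 genes were called, as more genes entered the adjustment. On log2(bp + 1) 3 Nkx genes (Nkx1-1, Nkx2-1 and Nkx2-3) and 131 genes (5.47%) were called. Replicate numbers did not pair the libraries (correlation of same-numbered deviations from -0.04 to 0.07), and with the number as a block 0 Nkx genes and 0 genes were called, where the smallest p was 0.00174.

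Alternatives chosen after seeing the data were these. Any peak within 5 kb of the start site left 1 Nkx gene called (Nkx1-1, where 2.76% of all genes were), put 1 wholly higher in mfn2-/- (3.6%) and 2 in vhl-/- (7.9%), and called 23 genes by percentile. Peaks of Nkx2-2os added to Nkx2-2 raised the mfn2-/- average to 9. Autosomal peaks alone, and equal lengths of the 9 longer lists, changed no count of Nkx genes by over 1.5 times, but on autosomes the genes wholly higher in mfn2-/- fell from 230 to 31. Leaving out 1 library gave 0 to 4 Nkx genes and 0 to 104 genes called across 4 genotypes. The 4 came without wild-type replicate 1. In the same settings 0 to 2 Nkx genes lay wholly lower in mfn2-/- (13.5% to 20.4% of all genes) and 0 to 2 wholly higher (3.59% to 12.3%). Wholly higher in vhl-/- were 3 to 5 Nkx genes (9.31% to 13.6% of all genes), the 5 without wild-type replicate 2. The pooled difference of mutant and wild-type libraries changed direction in at least 1 alternative for 7 of the 9 genes and was called in none. The causes were not tested. The planned limit of 10 kb by the authors' distance was not run, since the lists give no distance. Depth is unknown and limits every value here.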
